A study of Homo sapiens with 4 samples.

Results

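Strong H3K27ac peaks called only with daunorubicin were 262 of the 65118 peaks (0.402%) in the daunorubicin-treated library. They were chosen by 2 values of the peak lists: a score of at least 100 in the list of the treated cells, and no overlap, by as little as 1 bp, with any of the 38626 peaks of the untreated cells. The treated cells were K562 given 1 uM daunorubicin for 18 h, and they were set against K562 without the drug. K562 is a human line from chronic myeloid leukaemia in blast crisis that carries the BCR-ABL1 fusion, so both conditions share that oncogene. Each condition had 1 H3K27ac library and 1 input library sequenced with no antibody, and therefore no difference here has a replicate check and none was tested. The score, which is the authors' own value per peak, ranged between 10 and 660 in the treated list.

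H3K27ac, acetylation of lysine 27 on histone H3, is laid down by the acetyltransferases p300 and CBP and marks active promoters and enhancers. Promoter marks sit at transcription starts and are often shared between states of a cell, while enhancer marks lie in introns or between genes and differ more between states. Daunorubicin is an anthracycline that intercalates into DNA, poisons topoisomerase II and can evict histones from chromatin.

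Input peaks numbered 87 in treated cells and 92 in untreated cells, and no strong daunorubicin-only peak lay within 1 kb of any of them. That count of 0 of 262 allows a share of up to 1.15% (3 counts), for counting error only. The input lists covered only 54261 bp in treated and 55264 bp in untreated cells. Some of the 262 lay on chromosomes with no input peak at all. A count of 0 was therefore likely in advance and says little about artefacts, and the same share over all daunorubicin peaks is not given here. Of 13 genes that mark K562 and the erythroid lineage, among them GATA1, TAL1, KLF1 and TFRC, 12 were marked within 1 kb of either end in treated cells and 11 in untreated cells. HBE1 was marked in neither, and HBG2 in treated cells only. Of 12 marker genes of other cell types, 6 were marked in treated cells (CD3D, CD3E, CD4, APOA1, EPCAM and ALB) and 5 in untreated cells, ALB being the exception. MS4A1, PAX5, KRT5 and CDH1 were among those marked in neither. A gene end can also be the end of a neighbour, so these counts describe peaks and not expression.

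A small group of the 262 peaks lay over annotated transcription starts, and the promoters of 5 of those genes are shown to place the mark on its sequence. They were picked after their values were seen. HERC6 and MX1 belong to the interferon-induced genes, MCOLN3 encodes a lysosomal cation channel, FBXW7 encodes the substrate receptor of a ubiquitin ligase that degrades MYC and cyclin E, and CEP85 encodes a centrosomal protein. Each line holds the 250 bases before the start, from RefSeq (GRCh38.p14), on the strand of the gene. These windows are chr4:88378602-88378851 for HERC6 (plus strand), chr21:41420308-41420557 for MX1 (plus), chr1:85048501-85048750 for MCOLN3 (minus), chr4:152352827-152353076 for FBXW7 (minus) and chr1:26269029-26269278 for CEP85 (plus). Capitals mark GGGCGG on either strand, the GC box read by SP and KLF factors, in the first 4 lines. In CEP85 they mark TGANTCA on either strand, the site of AP-1.
HERC6: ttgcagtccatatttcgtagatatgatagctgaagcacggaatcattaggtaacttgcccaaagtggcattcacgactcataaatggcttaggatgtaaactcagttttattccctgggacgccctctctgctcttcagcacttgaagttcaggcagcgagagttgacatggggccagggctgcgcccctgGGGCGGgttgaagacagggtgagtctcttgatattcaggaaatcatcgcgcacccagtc
MX1: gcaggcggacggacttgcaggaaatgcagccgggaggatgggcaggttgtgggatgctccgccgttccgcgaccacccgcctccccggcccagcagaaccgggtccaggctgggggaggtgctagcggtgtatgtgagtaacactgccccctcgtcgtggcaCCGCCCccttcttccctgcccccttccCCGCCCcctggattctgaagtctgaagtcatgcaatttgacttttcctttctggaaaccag
MCOLN3: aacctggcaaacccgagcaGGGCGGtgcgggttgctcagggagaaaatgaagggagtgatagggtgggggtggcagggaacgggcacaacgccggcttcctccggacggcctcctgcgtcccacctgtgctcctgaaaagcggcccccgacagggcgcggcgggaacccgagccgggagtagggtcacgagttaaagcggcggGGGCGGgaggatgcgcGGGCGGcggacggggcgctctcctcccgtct
FBXW7: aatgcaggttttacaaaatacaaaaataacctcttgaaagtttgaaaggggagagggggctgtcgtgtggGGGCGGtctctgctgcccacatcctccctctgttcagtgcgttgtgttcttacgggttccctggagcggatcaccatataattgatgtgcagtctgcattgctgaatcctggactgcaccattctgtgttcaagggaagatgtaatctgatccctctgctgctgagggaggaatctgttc
CEP85: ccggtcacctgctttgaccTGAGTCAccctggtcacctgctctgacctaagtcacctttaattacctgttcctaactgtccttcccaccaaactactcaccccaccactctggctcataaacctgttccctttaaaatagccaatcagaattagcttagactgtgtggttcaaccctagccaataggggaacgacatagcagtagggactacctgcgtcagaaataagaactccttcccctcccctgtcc

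These promoters differed in base composition. MCOLN3 had 70.0% G and C and 27 CpG dinucleotides in the 250 bases shown, and MX1 had 63.6% and 15. HERC6 (50.4%, 9 CpG), CEP85 (49.6%, 3 CpG) and FBXW7 (49.2%, 5 CpG) were poorer. The GC box was found at 3 places in MCOLN3, at 2 in MX1 and at 1 each in HERC6 and FBXW7.

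The peaks over these starts were as follows. At HERC6 the daunorubicin peak spanned 88378743 to 88379537 on chromosome 4 with a score of 206, and the nearest untreated peak was 57697 bp away. At MX1 the peak began 1 bp before the annotated start and ran downstream (chromosome 21, 41420557 to 41420945, score 103), so only the last base shown for MX1 lies in the peak. The nearest untreated peak to MX1 was 362214 bp away. At FBXW7 a start inside the gene, over 1 kb from either end, was covered (chromosome 4, 152352174 to 152353177, score 126, nearest untreated peak 110827 bp away). At MCOLN3 the peak spanned 85048102 to 85049049 on chromosome 1 (score 125), and the nearest untreated peak was 102269 bp away. At CEP85, where the start was also inside the gene, the peak was 2003 bp wide with a score of 115, and an untreated peak lay 6003 bp away. None of these 5 peaks, picked after their values were seen, had an untreated peak within 6 kb. This does not hold for all members over a start, as the one at LINC01140 was 702 bp from an untreated peak.

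Other starts were covered as well. CAP2, an actin regulator gene, had a peak of score 109 over its start (chromosome 6, 17393435 to 17394545) that was 205248 bp from the nearest untreated peak and had no other daunorubicin peak within 50 kb. ZSCAN18, a zinc finger gene, had one of score 104 (gap 51570 bp), likewise with no other within 50 kb. CAST, which encodes the calpain inhibitor calpastatin, had one of score 103 (gap 39892 bp), RNF182 one of score 104 (gap 49495 bp) and RNF212B one of score 103 (gap 41223 bp). The covered starts of ZSCAN18, CAST and RNF212B were inside the gene. At MGAT5, RPL27 and MED19 a peak lay within 1 kb of the start but only 598, 289 and 212 bp from an untreated peak.

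In all, 26 of 262 peaks (9.92%, 95% Wilson interval 6.86 to 14.1) lay within 1 kb of an annotated start, at 29 genes. Of the 262, 13 lay on sequences for which no start was used here, 11 on chromosome 8 and 2 unplaced, and they stay in the denominator of shares by start. Peaks overlapped 21 promoter windows of 300 bases (250 before to 50 after the start) at 17 genes. The median G and C content of those windows was 61.7%, against 66.3% in the 10452 windows under shared peaks of score 100 or more, 58.3% in the 910 windows under weaker daunorubicin-only peaks and 58.7% in all 35116 windows. The median ratio of observed to expected CpG was 0.739, against 0.866, 0.562 and 0.579 in those same 3 sets. Windows of 1 gene can overlap, and 21 windows give wide intervals.

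Short motifs were counted on both strands of the 300 bases, with shares given for windows under strong shared peaks, under weak daunorubicin-only peaks and for all windows, in that order. The GC box GGGCGG stood in 14 of 21 windows (66.7%, 45.4 to 82.8), against 73.9%, 48.5% and 45.0%. The ETS core CCGGAA stood in 2, of CAST and CAP2 (9.52%, 2.65 to 28.9), against 33.9%, 11.4% and 17.2%. The CCAAT box was in 6 (28.6%), against 34.4%, 32.1% and 34.6%. The antioxidant response element TGACNNNGC was in 4, namely at ZSCAN18, FBXW7 and 2 uncharacterised loci (19.0%, 7.67 to 40.0), against 15.4%, 12.7% and 13.3%. TGANTCA was in CEP85 only (4.76% of the windows, against 4.09%, 13.4% and 7.71%). The interferon-stimulated response element, searched as GAAA followed after any 2 bases by GAAA, was in MX1 only, in the bases after the start that are not shown. That last motif was found in 3.57% of all windows. CACGTG, the E-box of MYC and MAX, was in 1 window, AGATAA of GATA factors in 2 and TATAAA in 1, and TGACGTCA was in none. Of the motifs searched, the ETS core was the one whose interval in the 21 windows lay wholly below its share under strong shared peaks, and its share was near that under weak daunorubicin-only peaks. A match is a description of letters and not of binding.

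Position against genes set the 262 peaks apart from shared peaks of like score more than from the whole list. A gene end here is a position within 1 kb of either end of a RefSeq gene of any biotype. Of the 262, 46 were at a gene end (17.6%, 13.4 to 22.6), 124 lay inside a gene (47.3%, 41.4 to 53.4), 90 were intergenic (34.4%, 28.9 to 40.3) and 2 were on an unplaced sequence with no annotated gene. Shared daunorubicin peaks of like score, 100 to 150, were at a gene end in 56.0% (54.8 to 57.3) of 6034 cases, inside a gene in 28.3% and intergenic in 15.5%. Of those shared peaks, 45.2% (43.9 to 46.4) were within 1 kb of a start. The 228 daunorubicin-only peaks in the same score range were at a gene end in 17.5% (13.2 to 23.0). Their median score within that range was 112.5, against 122 for the shared peaks, so scores were not matched exactly. Over all 65118 daunorubicin peaks, 28.3% (28.0 to 28.7) were at a gene end, 49.7% (49.3 to 50.1) inside a gene and 21.8% (21.5 to 22.1) intergenic. The gene-body share of the 262 was thus near that of the whole list, while their gene-end share was below it and their intergenic share above it. Of the 262, 62.2% (56.2 to 67.9) were over 10 kb from any start, against 58.6% (58.2 to 59.0) of the whole list. Position was not used to choose the peaks, and the intervals cover counting error only.

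Weaker daunorubicin-only peaks, 29888 with a score under 100, were nearer to the strong ones in this respect but differed in detail. They were at a gene end in 12.3% (11.98 to 12.7), inside a gene in 60.7% (60.2 to 61.3) and intergenic in 26.8% (26.3 to 27.3). Strong daunorubicin-only peaks were thus less often inside genes and more often intergenic than weak ones, with intervals that did not overlap, and slightly more often at a gene end. The share over 50 kb from any start was 25.2% (20.3 to 30.8) for the strong peaks and 26.8% (26.3 to 27.3) for the weak ones. Among strong shared peaks of score 100 to 150 it was 13.9%.

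**Figure D1:**
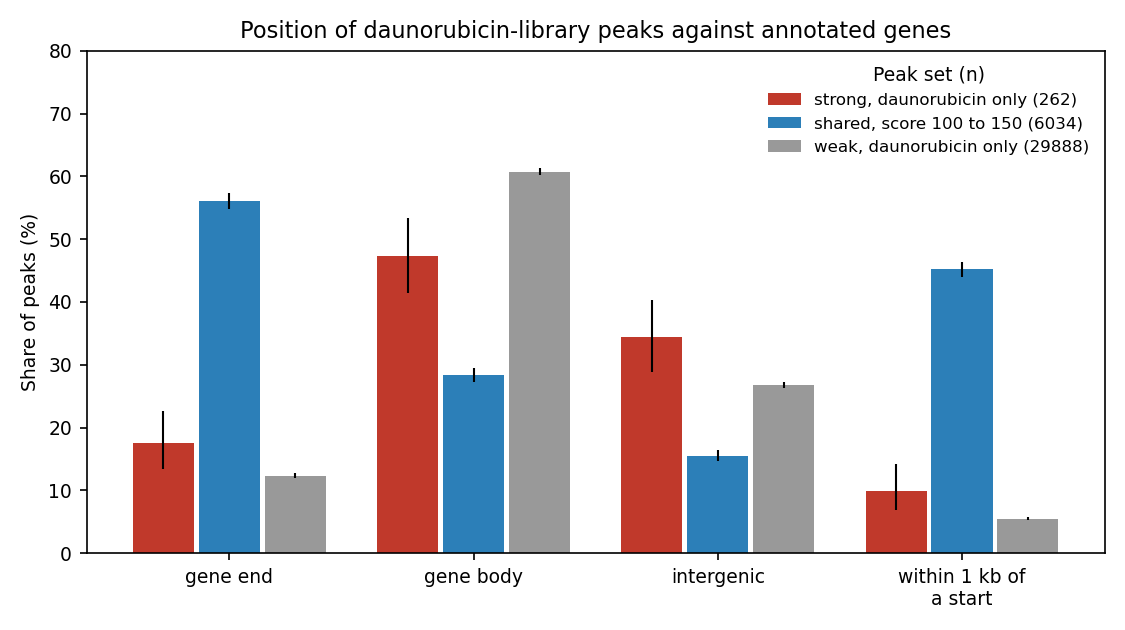
Share of peaks of the daunorubicin library (%, with 95% Wilson intervals as lines) at gene ends, inside genes, between genes and within 1 kb of an annotated start. The strong daunorubicin-only peaks (left bars) had 17.6% at a gene end, against 56.0% of shared peaks of score 100 to 150 (middle bars) and 12.3% of weak daunorubicin-only peaks (right bars).

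The scores that chose the peaks are a description and carry no test. Their median was 115, with quartiles of 105 and 132.8 and a highest value of 318, so most stood just over the threshold. At a score of exactly 100 there were 13 peaks, and 20 daunorubicin-only peaks just missed with 99. Of the 262, 97 scored 100 to 109, 53 scored 110 to 119, 78 scored 120 to 149, 26 scored 150 to 199 and 8 scored 200 or more. Shared peaks of score 100 or more numbered 12815 and had a median of 155. Daunorubicin peaks with no untreated partner made up 2.00% of all 13077 with a score of at least 100, and 46.3% of the whole list. By score bin that share was 6.34% (5.23 to 7.68) at 100 to 109 and 0.227% (0.115 to 0.446) at 200 and over.

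The same rule turned round found 11 untreated peaks of score 100 or more with no daunorubicin peak, 0.0995% of 11054. Scores of the lists may differ in scale, and the treated list was longer. Those 11 had a median gap of 1741 bp to the nearest daunorubicin peak, and all 11 lay within 50 kb of one. Of the 262 daunorubicin-only peaks, 209 (79.8%, 74.5 to 84.2) had an untreated peak within 50 kb, with a median gap of 10878 bp over the whole set.

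**Figure D2:**
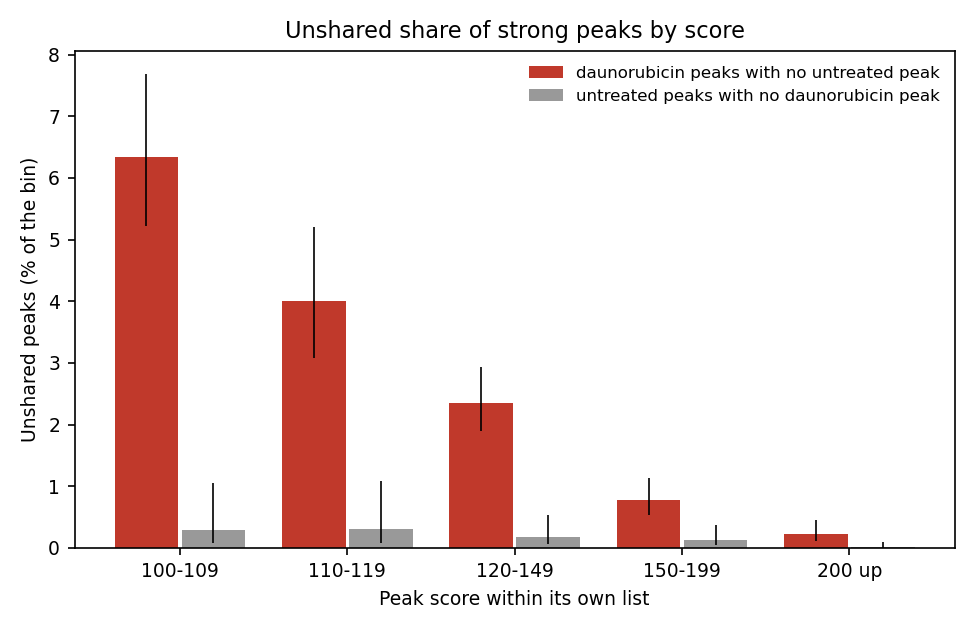
Share of strong peaks with no overlapping peak in the other library (%, 95% Wilson intervals as lines), by bins of score within each list. The daunorubicin bars fall with score, 6.34% at 100 to 109 and 0.227% at 200 and over, and stay above the untreated bars in each bin.

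Strong daunorubicin-only peaks were narrower than shared peaks of like score. The rule itself favours this, since a wider peak is more likely to overlap an untreated one. Over all daunorubicin peaks, most of them of lower score, the median width was 733 bp. Their median width was 983 bp (quartiles 654.2 and 1270), against 1390 bp (1027 and 1798) for shared peaks of score 100 to 150 and 432 bp for the weak daunorubicin-only peaks. The median of the 228 in the same score range was 960.5 bp. Peaks at gene ends had a median width of 858 bp, those inside genes 1004 bp and those between genes 983 bp, and the median scores of these classes were 119, 115 and 113.

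Distance from existing marking varied widely within the set. In 29 of 262 peaks (11.1%, 7.82 to 15.4) an untreated peak lay within 1 kb, in 97 it was 1 to 10 kb away, in 83 it was 10 to 50 kb away and in 53 it was farther. The share within 1 kb was the same among weak daunorubicin-only peaks, 11.1% (10.7 to 11.4). Within 10 kb it was 48.1% (42.1 to 54.1) for the 262 and 48.4% (47.8 to 48.9) for the weak ones. Within 50 kb it was 79.8% (74.5 to 84.2) and 85.7% (85.3 to 86.1). Median scores of the peaks were 116, 117, 114 and 113 in these 4 bands. Peaks were chosen by score and most stood just over the threshold. These medians therefore cannot show whether score varies with distance. The nearest untreated peak had a median score of 36 in the 29 close cases (upper quartile 66, range 13 to 235), against 43 over the untreated list. In the farther bands, in order of distance, that median was 49, 37 and 61, so a low score was not particular to the close cases. The closest of the 262 was inside a gene on chromosome 5 (56316209 to 56317154, score 131), 46 bp from an untreated peak of score 17.

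**Figure D3:**
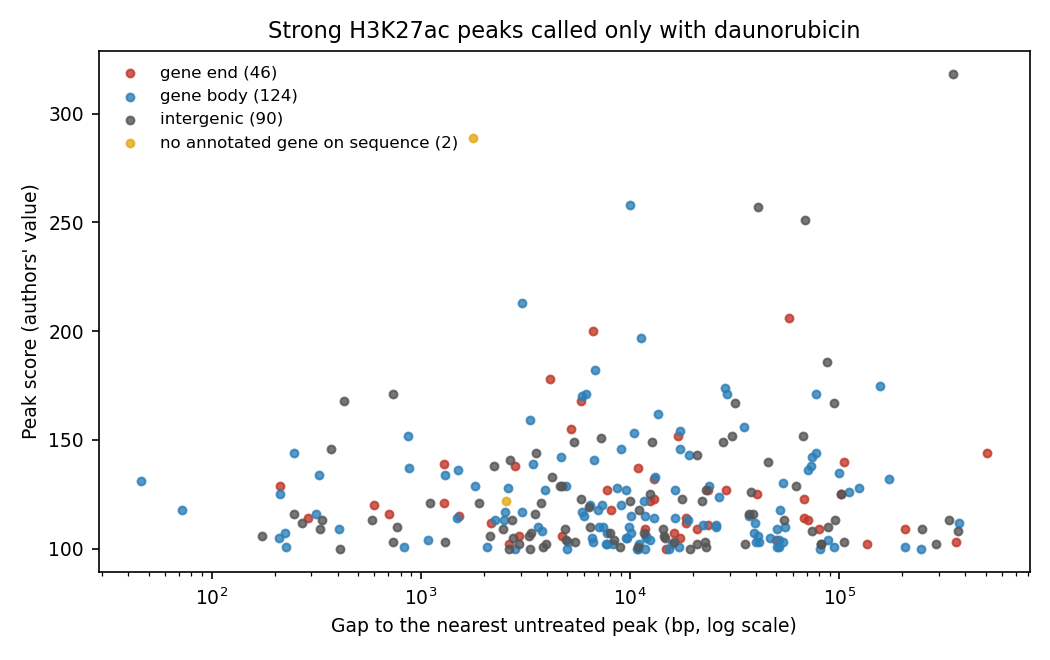
Score of each of the 262 peaks (authors' value) against the gap to its nearest untreated peak (bp, log scale), coloured by position against genes. Gaps run between 46 and 509450 bp, the point of highest score (318) has a gap of 349738 bp, and the classes are mixed along both axes.

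The 5 peaks farthest from untreated marking were isolated in the treated library as well. They lay at an end of SAMD12 (chromosome 8, 118621897 to 118622289, score 144, gap 509450 bp), inside RIMS2, a gene of the presynaptic active zone (score 112, gap 372836 bp), 14597 bp from POU2AF2, a transcription cofactor gene of tuft cells (score 108, gap 370547 bp), at MX1 (score 103) and 69936 bp from TWIST2 (score 318, gap 349738 bp). None of the 5 had another daunorubicin peak within 50 kb. They were narrow, at 389 to 583 bp. In all, 20 of the 262 had no other peak of either library within 50 kb, and 33 had no untreated peak but at least 1 other daunorubicin peak there. Together these were 53 peaks with no untreated peak within 50 kb (20.2%, 15.8 to 25.5). The share was 14.3% (13.9 to 14.7) among weak daunorubicin-only peaks. Over all daunorubicin peaks it was 6.63%, a list that includes shared peaks, which overlap an untreated one by definition. For the 20 alone, the share in other sets was not computed.

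Most of the 262 were not isolated. Another daunorubicin-only peak of any score lay within 10 kb of 122 (46.6%, 40.6 to 52.6), against 39.0% (37.7 to 40.2) of shared peaks of score 100 to 150 and 47.3% (46.7 to 47.8) of weak daunorubicin-only peaks. Over all daunorubicin peaks it was 43.8% (43.4 to 44.2), within the interval of the 262. The nearest other daunorubicin peak was a weak daunorubicin-only peak in 135 cases (51.5%) and a shared peak under 100 in 70. It was a strong shared peak in 53 (20.2%) and another member of the set in 4. The whole list of 65118 held 29888 weak daunorubicin-only and 12815 strong shared peaks. The same split around other daunorubicin peaks was not computed. In the flanks of 50 kb on either side, with the peak itself left out, the marked length had a median of 4489 bp with daunorubicin and 2522 bp without it. The flank was longer with daunorubicin at 229 peaks (87.4%, 82.8 to 90.9), shorter at 13 and equal at 20. Over all 65118 daunorubicin peaks it was longer at 85.7% (85.4 to 85.9), so this share was near that of the whole list.

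**Figure D4:**
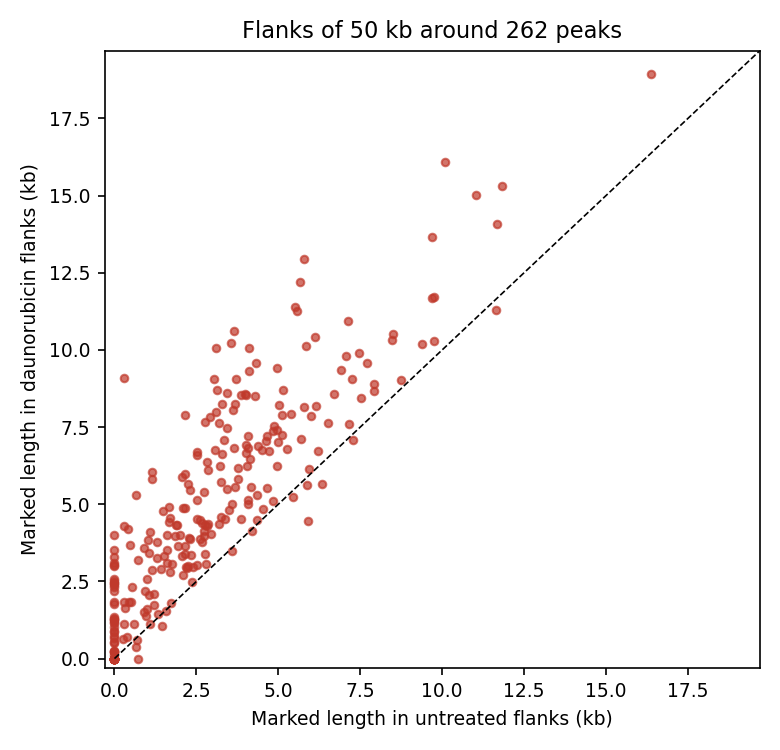
Marked length (kb) in the 50 kb flanks on both sides of each of the 262 peaks, in the daunorubicin library (vertical axis) against the untreated library (horizontal axis), with the line of equality dashed. Points above the line, 229 of 262, had longer marking with daunorubicin, and 53 points stand at 0 on the untreated axis.

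Among the 262, the largest local gain was around an intergenic peak on chromosome 12 (25842677 to 25844164, score 152). It had 11 other daunorubicin-only peaks within 50 kb, and its flanks held 9097 bp with daunorubicin and 276 bp without it. At the opposite end was a peak inside DNM2, which encodes the membrane-scission GTPase dynamin 2 (chromosome 19, 10820620 to 10822067, score 103), whose flanks held 4468 bp with daunorubicin and 5906 bp without it. Both were chosen after their values were seen.

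Joining members of the set less than 50 kb apart gave 257 regions, of which 5 held 2 peaks each. No set of like size was drawn from other peaks, so whether this is few or many was not tested. One pair lay 30299 bp end to end around IL12B, which encodes the p40 subunit of interleukin 12 and 23 (chromosome 5, 159314780 to 159330487). The peaks scored 126 and 123, the second at the start of the antisense gene IL12B-AS1. Within 50 kb of IL12B the daunorubicin library had 3 peaks and the untreated library had 0. Counts by gene, here and below, include the members that chose the gene, so an excess with daunorubicin is partly built in. The whole lists held 65118 and 38626 peaks. A pair lay inside CSTPP1, a regulator of tubulin polyglutamylation (scores 117 and 107), and within 50 kb of the gene's span treated cells had 32 peaks and untreated cells 13. Other pairs lay in ERRFI1-DT, beside the ERBB inhibitor gene ERRFI1 (110 and 101), and on chromosome X, 89364 and 95249 bp from PPP2R3B (110 and 167). The last pair was on an unplaced sequence (122 and 289).

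Around TBC1D22B, a TBC-domain gene on chromosome 6, 3 of the peaks lay in 158862 bp, with scores of 101, 258 and 104. The middle one (37302391 to 37304063, 1673 bp) was inside TBC1D22B, and the third lay 4774 bp from RNF8, which encodes a ubiquitin ligase of the response to DNA breaks. Treated cells had 22 peaks and untreated cells 8 within 50 kb of TBC1D22B, and 15 and 5 at RNF8, members included. Between 34865427 and 37400910 on chromosome 6 there were 6 members, and the 5 Mb window from the first held 55 strong shared peaks. A window of 5 Mb on chromosome 17, from 40485719, also held 6 members, with 90 strong shared peaks. No window of that size held more members. UGCG, the glucosylceramide synthase gene, had 1 member on each side, at 23048 bp (score 123) and 44846 bp (score 101), with 8 daunorubicin and 3 untreated peaks in all. FNIP2, a partner of folliculin, had 2 members within 50 kb (scores 100 and 146) with 21 and 10 peaks, and so had ANAPC5, a subunit of the anaphase-promoting complex, with 9 and 6; those of ANAPC5 were inside CAMKK2 (score 115) and 7826 bp from RNF34 (score 106). ETV7, an ETS factor gene (15 and 8 peaks), UBLCP1, a proteasome phosphatase gene (5 and 1), and TMEM217 (24 and 16) completed the genes with 2 members.

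Chromosomes held unequal shares. Chromosome 1 had 43 of the 262 (16.4%, 12.4 to 21.4), against 12.1% of strong shared peaks. Chromosome 6 had 29 (11.1%, 7.82 to 15.4), against 7.21%. Chromosome 19 had 7 (2.67%, 1.30 to 5.41), against 6.61%. Among weak daunorubicin-only peaks chromosome 1 held 11.7%, chromosome 6 held 7.09% and chromosome 19 held 2.69%. The low share of chromosome 19 was thus near that of weak daunorubicin-only peaks, whereas the intervals of chromosomes 1 and 6 lay above the shares in both other sets. These 3 were picked out of all chromosomes after their values were seen, and copy number was not analysed here.

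**Figure D5:**
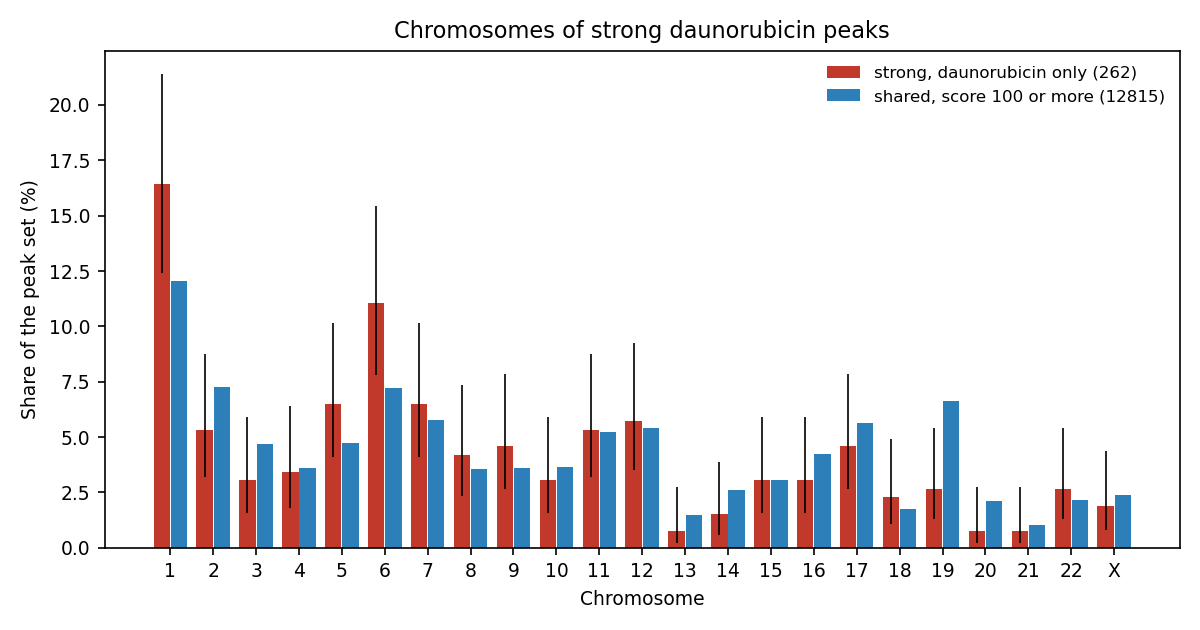
Share of the 262 strong daunorubicin-only peaks (left bars, % with 95% Wilson intervals as lines) and of the 12815 shared peaks of score 100 or more (right bars) on each chromosome. Chromosomes 1 and 6 stand above their shared bars (16.4% and 11.1% against 12.1% and 7.21%) and chromosome 19 below (2.67% against 6.61%).

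The peaks of highest score lay near genes of unlike function. Beyond the intergenic peak near TWIST2 and the one in TBC1D22B, a peak of score 257 was 75364 bp away from TMPO, whose product binds the nuclear lamina. Another of score 251 was 67819 bp away from BMAL1, which encodes a clock transcription factor, and it had no other peak of either library within 50 kb. Inside genes were a peak in PRDM11, a PR-domain zinc finger gene (score 213), 3027 bp from an untreated peak, and one in NTN1, which encodes the guidance cue netrin 1 (score 197). BNIP5 (score 182), ARHGAP25, a GTPase-activating protein gene of blood cells (score 171), MKLN1, a subunit gene of the CTLH ubiquitin ligase (score 171), CCDC81 (score 171) and OAZ2, an antizyme gene of polyamine control (score 170), also held one. The peak inside RCC1, the exchange factor gene of Ran (score 168), was at the end of the pseudogene PRDX3P2. Others lay between genes, 37399 bp from ANKRD46 (score 186) and 1610 bp from KIRREL3, a cell adhesion gene (score 171). The peak at 78459230 on chromosome 10 (score 175) had no protein-coding gene within 100 kb, and one on chromosome 7 (score 174) lay 16334 bp from LOC124901794.

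Marking around these genes was already present in most cases. ARHGAP25 had 15 daunorubicin peaks and 8 untreated ones within 50 kb of its span, MKLN1 24 and 8, BNIP5 19 and 8, CCDC81 8 and 2, OAZ2 7 and 2 and PRDM11 7 and 2. The untreated count was lower at each of these 6 genes, as it is in the whole list (38626 against 65118). The treated counts include the members that chose the genes.

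The widest members were the peak of 2205 bp in CSTPP1 and one of 2166 bp on chromosome 10 with no protein-coding gene within 100 kb (score 127). Next came one of 2142 bp located 6273 bp from FGFR1, a receptor tyrosine kinase gene (score 119), one of 2121 bp located 6881 bp from SH3GLB1, which encodes the membrane-curving protein endophilin B1 (score 102), and one of 2115 bp at an end of PTPRF, a receptor phosphatase gene (score 200). FGFR1 had 11 daunorubicin and 10 untreated peaks within 50 kb, close numbers in both libraries.

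At gene ends, the peaks below HERC6 and PTPRF in score were at TBX19, a T-box factor gene of pituitary cells (score 178, an untreated peak 4155 bp away), SNORA3C near PRSS41 (152), SAMD12 (144), the pseudogene OR7A1P near OR7A17 (140), CPXM1 (132), MED19, a Mediator subunit gene (129), and SLC38A8, an amino acid transporter gene (127). Others marked ends of non-coding genes or pseudogenes, LINC02385 near TXNRD1 (155), CCT6P1 (139), LOC105371081 in CLEC16A (138), LOC105376300 near PRRC2B (137) and RN7SKP192 near OR10V1 (127). MED19 was also marked without the drug, by an untreated peak of score 231 located 212 bp from the daunorubicin-only one. No untreated peak lay within 50 kb of OR7A17, where the daunorubicin library had 2.

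Most genes nearest to the set had a marked start in both libraries. A start was counted as marked where a peak lay within 1 kb of it. Of 238 nearest protein-coding genes, 193 had a start in the RefSeq promoter table. Of these 193, starts were marked in both libraries at 131 (67.9%, 61.0 to 74.1), in treated cells alone at 24 (12.4%, 8.50 to 17.8), in untreated cells alone at 2, and at 36 in neither (18.7%). Over all 15842 protein-coding genes with a start the shares in the same order were 60.7%, 4.00%, 0.644% and 34.7%. In 11 of the 24 genes a strong daunorubicin-only peak itself was the sole mark. With those peaks left out, 13 of 193 (6.74%, 3.98 to 11.2) were marked only with daunorubicin, against 3.93% (3.64 to 4.24) of all genes, whose share lay just under that interval.

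Genes of pathways linked to anthracyclines and to blood cells were looked up in 22 lists of 412 genes. A member lay within 50 kb of 15 of them (3.64%, 2.22 to 5.92), against 2.26% of all protein-coding genes. That background share lay inside the interval, near its lower limit. MX1 with MX2, and IER3 with MDC1, shared a peak, so the 15 genes are not independent and the interval is too narrow. No gene of 11 lists had one, which were the p53-activated, NF-kB, apoptosis, megakaryocyte and platelet, myeloid, drug transporter, retinoid, heat shock, circadian clock, cyclin and CDK inhibitor, and elongation lists. Each of these held only 14 to 24 genes, and the upper limits of their 0 counts were 13.8% to 21.5%. At the share of 2.26% over all protein-coding genes, a count of 0 was the likely outcome for lists of this size.

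Interferon response genes held 3 of 26 (11.5%, 4.00 to 29.0), HERC6, MX1 and MX2. These encode an interferon-induced ubiquitin ligase family member and the antiviral dynamin-like GTPases. MX2 shared the MX1 peak, 11163 bp away, so the 3 genes are not independent and the interval is too narrow. The share over all protein-coding genes, 2.26%, lay under that interval. This was the highest share among 22 lists, seen after the fact, and it was not tested. Peak counts within 50 kb of a gene's span were 5 in treated against 1 in untreated cells at HERC6, and 1 against 0 at MX1 and MX2. Counts for the genes that follow are in the same order. All of them include the members that chose these genes, and the whole lists held 65118 against 38626 peaks. AP-1 and immediate early genes held 2 of 20 (10.0%, 2.79 to 30.1), which was not tested either. ATF3, a stress-responsive factor gene, had a member inside it (chromosome 1, 212595945 to 212596957, score 102) and 10 against 4 peaks, and IER3 had one 19083 bp away (score 100) and 20 against 12 peaks. The start of ATF3 was marked in neither library.

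Among the other lists, TXNRD1, the thioredoxin reductase gene and the 1 NRF2 pathway gene of 20 with a member, had it 37091 bp away (score 155), and 12 against 4 peaks. SLC4A1, the band 3 anion exchanger gene of red cells, had one 1216 bp away (chromosome 17, 44245534 to 44247173, score 122, 22000 bp from an untreated peak) and 12 against 7 peaks. ABL1, the kinase gene fused in BCR-ABL1, held one inside the gene (chromosome 9, 130853729 to 130854652, score 117, 5902 bp from an untreated peak) and 24 against 13 peaks. SOX4, a progenitor factor gene, had one 16436 bp away (score 100) and 4 against 2 peaks. DNAJB9, a co-chaperone of the endoplasmic reticulum, had one 10756 bp away (score 105) and 5 against 2 peaks.

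The rest lay nearer to other genes. MLXIPL, a glucose-responsive partner of MLX, had one 30215 bp away (score 116) and 14 against 9 peaks, and HDAC5, a class IIa deacetylase gene, one 14201 bp away (score 116) and 18 against 12 peaks. BRCA1 had one at 46189 bp that was 167 bp outside RPL27, near its start (score 114), and 11 against 9 peaks, and MDC1, a scaffold of the DNA damage response, shared the peak of IER3 at 46349 bp and had 22 against 13. ALDH1A2, the only member of the ALDH family of 19 with one, had it 44892 bp away and nearer to the aquaporin gene AQP9 (score 103), 736 bp from an untreated peak, with 9 against 5 peaks. No start of IER3, SLC4A1, MX2 and HDAC5 was used here. Of the other list genes with a member, HERC6 and MX1 had a start marked only with daunorubicin, and their peaks were the ones over the start.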

How the data were processed

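ChIP-seq for H3K27ac and input libraries were made from K562 cells with and without daunorubicin, 1 library per group. Per the submitters' processing notes, MACS2 2.1.1, Bowtie2 2.3.4.3 and deepTools 3.2.1 were named, as were hg19 and hg38. Parameters, duplicate handling and the role of input were not given in the sources used here. Each deposited list holds peaks with a score whose formula is unknown, and read depth is unknown too. Sequence names are those of hg38. Coordinates are counted from 1.

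Peaks were compared by overlap of at least 1 bp, and a gap is the number of bases between edges (Python 3.11.15, pandas 2.3.3, scipy 1.17.1). Genes (59788) and promoter windows (35116, including 15842 of 20052 protein-coding genes) came from RefSeq, GRCh38.p14, with 412 of 413 list genes matched. Overlap functions were checked on simulated peaks against bedtools. Wilson intervals of 95% cover counting error only.

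The peaks and gene lists were chosen with earlier results of these data known. Named genes were those nearest (within 100 kb) to the 20 highest-scoring, 5 widest and 5 farthest peaks and the 15 highest at gene ends, genes with at least 2 members within 50 kb, and list genes with a member there. The 13 alternatives from the design and 2 chosen after seeing the data changed the score, overlap, input, sequences, merging, gene annotation or distance.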

Additional observations from a re-analysis of the deposited data

How the results depend on the processing

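The number of strong daunorubicin-only peaks followed its thresholds. It was 694 at a score of at least 80, 34 at a score of at least 150, and 920 where an untreated peak had to cover 50% of the peak to count as shared, against 262. It was 233 to 262 with peaks within 1 kb of untreated or input peaks left out, on chromosomes 1 to 22 and X, or with neighbours within 10 kb joined. The share at a gene end was 15.3% to 18.3% under the other scores, sequences and gaps and with a narrower distance to gene ends. It was 25.9% under the 50% cover, 28.6% with gene ends within 2.5 kb, 8.02% with protein-coding genes only, when the gene-body share was 40.1%, and 9.92% with transcription starts, an alternative chosen after seeing the data. The share within 1 kb of an untreated peak was 74.7% under the 50% cover and 32.4% for 5 kb, and 0 once closer peaks were left out; the first and the last of these are fixed by construction. The share with another daunorubicin-only peak within 10 kb was 53.04% under the 50% cover, 26.7% for 5 kb, 86.6% for 50 kb and, chosen after seeing the data, 16.0% when those neighbours had to score at least 43. In all, 31 of 46 recomputed values stayed within the interval, or within 1.5 times the count. This tally is not a measure of stability. Leaving out peaks near input peaks removed none, so its values were fixed in advance. On chromosomes 1 to 22 and X 260 peaks remained, and joining neighbours gave 259 regions, so those values could hardly move. No paired analysis was possible because each group had 1 library. Depth is unknown, and a peak missing from the untreated list may lie under that list's threshold.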

Other observations

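MicroRNA hairpins of the RefSeq table lay within 10 kb of 5 of the 262 peaks. The same share over all daunorubicin peaks was not computed, so whether 5 is many or few cannot be told. The nearest was MIR199A1, 3123 bp from the peak inside DNM2 (score 103). MIR4284 was 3886 bp from a peak of score 128 on chromosome 7, MIR320B2 4787 bp from one of score 114 on chromosome 1, MIR320C1 7287 bp from one of score 105 on chromosome 18, and MIR3679 7928 bp from the peak at MGAT5 (score 120). None of these hairpins was overlapped by a strong daunorubicin-only peak.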
